A study of Cucumis melo with 30 samples.

Results

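Between day 15 and day 25 after anthesis, the opening of the flower, fruit of the oriental melon cultivar YMR-WF (YMR from here on) changed the relative RNA level of 67.4% of its tested genes. This step is described here from 6 of the 30 RNA sequencing libraries of the study, the 3 of YMR fruit at day 25 and the 3 of YMR fruit at day 15, chosen by their labels. It is set beside the same step in the cultivar HDB-OF (HDB), with 3 libraries at day 25 and 3 at day 15, and beside YMR fruit at day 35, day 30 and day 5, with 3 libraries each. No treatment or mutation is labelled for any group. The labels say only that the tissue is fruit, and the part of the fruit taken and the number of fruits behind a library were not given in the sources used here.

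Melon fruit, the fleshy fruit of Cucumis melo, enlarge by cell division and then by cell expansion before they ripen. Ripening brings sugar accumulation, softening of the flesh through changes in cell walls, pigment change and the making of volatile esters that give the fruit its smell, and in many melons it comes with a rise in ethylene, the gaseous ripening hormone. Which of these processes the genes below belong to cannot be said here, because the deposited table names genes only by identifier and 0 of its 27427 identifiers matched the 28628 genes of the RefSeq table for the assembly USDA_Cmelo_AY_1.0. For the same reason no markers of fruit tissue could be checked, and no sequences, positions or roles are given.

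Total counts lay between 18649978 and 20221849 in the day 25 libraries of YMR and between 18260348 and 20456313 in its day 15 libraries, so depth differed little between the days. A low-count filter, run on the 10 groups of all 30 libraries, left 18426 genes for testing. Some of these were kept through other groups and had no count in the 6 libraries compared. On log2 CPM (counts per 1000000 of the scaled library size), the first principal component of the 6 libraries held 85% of their variance and separated the days. The day 25 libraries stood at 101 to 125 on it, and the day 15 libraries at -117 to -106. Correlations across genes ran from 0.984 to 0.988 within day 25, from 0.967 to 0.98 within day 15 and from 0.842 to 0.873 between the days. The median coefficient of variation of genes with a mean of at least 100 CPM was 8.26% over 2598 genes at day 25 and 13.3% over 1919 genes at day 15.

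The counts became concentrated on fewer genes. The 1000 most counted genes of each library held 58.2%, 60.4% and 57.9% of its counts at day 25, against 46.6%, 49.5% and 47.9% at day 15, with no overlap between the days. The 10 most counted genes took 5.97% ± 0.474 of a day 25 library and 5.26% ± 0.246 of a day 15 library (SD, n = 3 each; exact two-sided permutation p = 0.2). Genes ranked 11 to 100 held 17.3% ± 0.726 at day 25 against 12.9% ± 0.741 at day 15, and genes ranked 101 to 1000 held 35.5% ± 0.293 at day 25 against 29.8% ± 1.01 at day 15. Genes below rank 5000 held 10.7% ± 0.64 at day 25 and 16.9% ± 0.986 at day 15. Each of these last 3 differences gave p = 0.1 in the exact two-sided permutation test, the smallest p that 3 libraries against 3 allow.

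Fewer genes were detected at day 25. Genes with at least 10 counts numbered 15495, 15086 and 15443 in the day 25 libraries, against 16742, 16749 and 16685 in the day 15 libraries. With all 6 libraries thinned to the smallest total, the means were 15251 ± 239 at day 25 and 16655 ± 77 at day 15 (SD, n = 3 each). The effective number of genes, the exponential of the Shannon entropy of the shares, was 3475 ± 213 at day 25 and 5153 ± 253 at day 15. The median count of a tested gene was 196 ± 14.6 at day 25 and 325 ± 14.8 at day 15, at near equal total counts.

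Scaling factors followed the composition. TMM factors, which centre the bulk of the genes between libraries, were 0.776, 0.719 and 0.783 at day 25, against 1.19, 1.06 and 1.17 at day 15. RLE factors, based on the median ratio of genes, averaged 0.781 ± 0.0397 at day 25 and 1.15 ± 0.0751 at day 15. Upper quartile factors lay closer to 1, at 0.833 ± 0.029 for day 25 and 1.1 ± 0.0369 for day 15 (SD, n = 3 each). Replicate 2 of day 25 had the lowest factor by each method, the largest share for its top 1000 genes and the fewest genes detected.

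**Figure D1:**
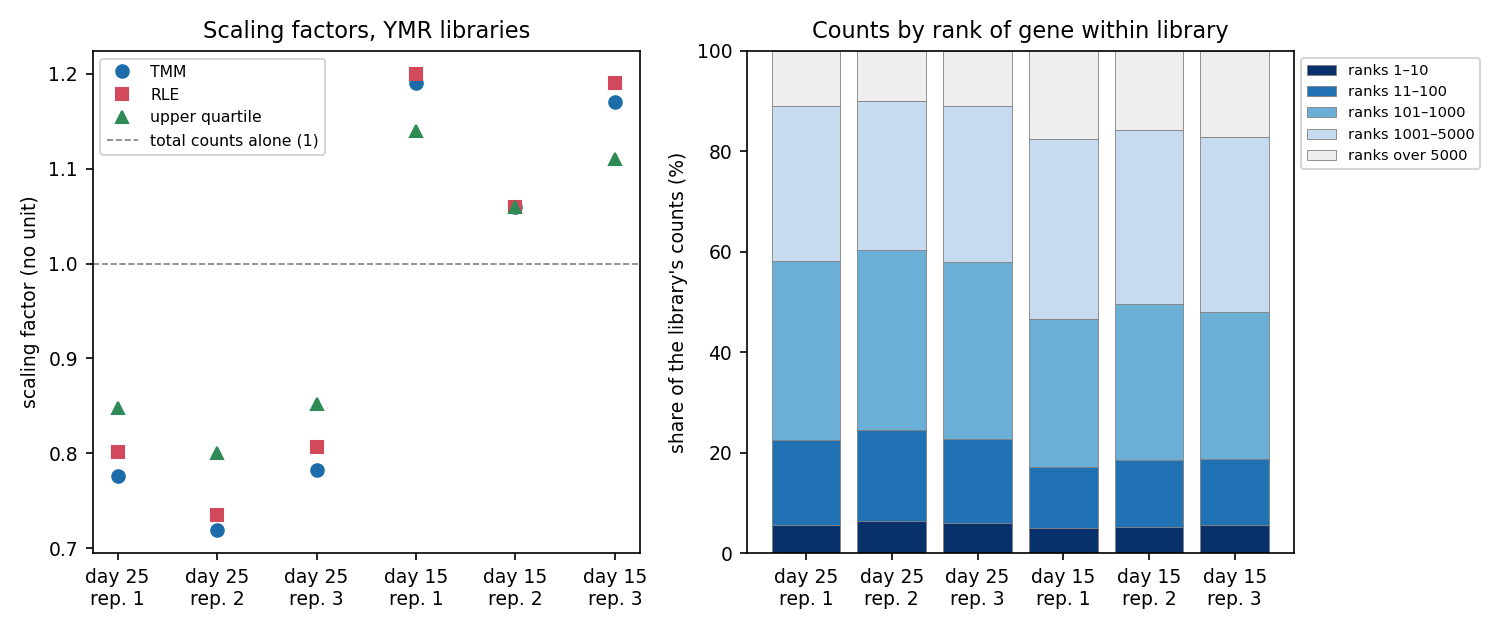
Left, scaling factors (no unit) of the 3 day 25 and 3 day 15 YMR libraries by TMM, RLE and upper quartile, with a dashed line at 1 for total counts alone; all day 25 factors lie below 1 and all day 15 factors above it. Right, share of each library's counts (%) held by genes of 5 rank classes; genes ranked 101 to 1000 hold 35.2% to 35.7% at day 25 and 29.1% to 31% at day 15.

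The question of the comparison is which genes change as YMR fruit pass from day 15 to day 25. With TMM scaling, 12421 of 18426 genes passed edgeR's quasi-likelihood test at a Benjamini-Hochberg adjusted p under 0.05, which is 67.4% of those tested. Of the tested genes, 5964 (32.4%) rose and 6457 (35.0%) fell. Large falls outnumbered large rises: 4297 genes (23.3%) fell at least 2-fold and 2930 (15.9%) rose as much, 2344 (12.7%) fell at least 4-fold and 1193 (6.47%) rose as much, and 836 (4.54%) fell at least 16-fold and 351 (1.9%) rose as much. The genes that fell at least 4-fold were the less abundant. Their median log2 CPM, averaged over the 6 libraries, was 0.48, against 3.79 for the genes that rose at least 4-fold. Genes that rose made up 72.3% ± 1.45 of a day 25 library and 36.9% ± 2.1 of a day 15 library. Genes that fell made up 11.4% ± 0.776 at day 25 and 38.8% ± 2.27 at day 15 (SD, n = 3 each). These shares describe the calls and are no separate evidence, since the same counts made the calls. In bulk libraries fewer cells of a type and less RNA per cell cannot be told apart, and the counts give shares of the sequenced RNA, not amounts per fruit.

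The balance of rises and falls depended on the scaling. With total counts alone, 13175 genes (71.5%) were called, of which 2940 (16.0% of those tested) rose and 10235 (55.5%) fell, and the median log2 change of all tested genes was -0.66 where TMM gave -0.07. RLE called 67.3% of genes, with 5789 rises, 6613 falls and a median of -0.1. Upper quartile factors called 67.3%, with 4900 rises, 7496 falls and a median of -0.25. Going from TMM to total counts moved the log2 change of the middle gene by -0.58. All 6457 genes that fell with TMM also fell with total counts alone, with RLE and with upper quartile factors. Each of these scalings moved the log2 changes downward from TMM (median shift -0.58, -0.03 and -0.18), so that agreement was largely set in advance. TMM with singleton pairing, not among the 4 scalings compared here, gave a median of -0.06. It kept 6385 of the TMM falls and 5963 of the TMM rises. Of the 5964 that rose with TMM, 2940 rose under all 4 scalings, 2638 were not called with total counts alone and 386 fell there. A further 3392 genes that TMM left uncalled fell with total counts alone. The 2940 genes that rose under all 4 scalings had a median log2 change of 1.7 with TMM and 1.12 with total counts alone, and the 6457 that fell under all 4 had -1.44 and -2.03.

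**Figure D2:**
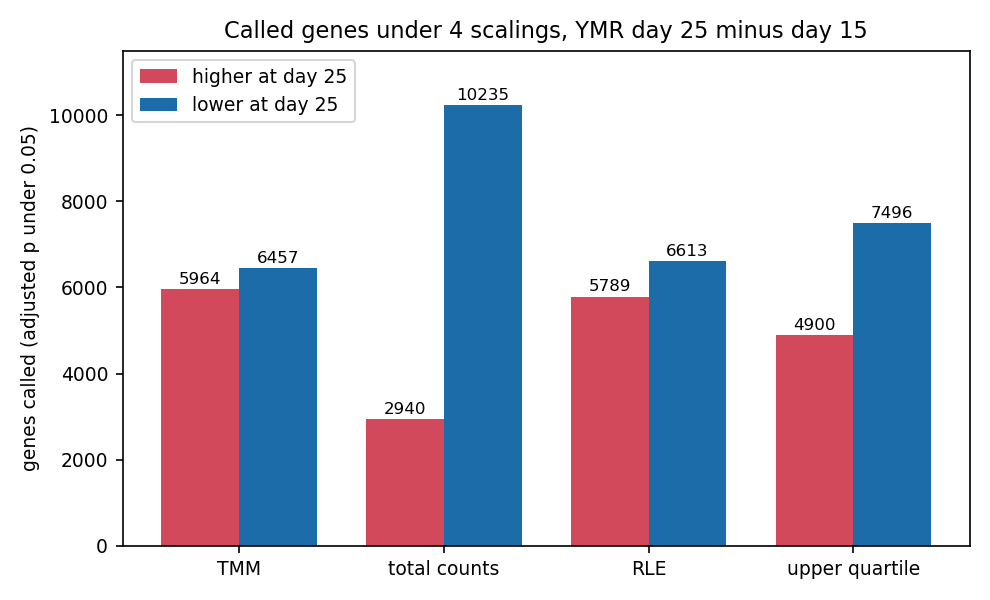
Number of genes called (adjusted p under 0.05, of 18426 tested) as higher or lower at day 25 than at day 15 in YMR fruit under 4 scalings. Falls outnumber rises under each, by 6457 to 5964 with TMM and by 10235 to 2940 with total counts alone.

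Leaving out each of the 6 libraries in turn kept 5060 of the 5964 rises and 5244 of the 6457 falls in every case. Across all 14 alternatives together, total counts included, 2805 rises and 4994 falls were kept. Every day 25 library lay above every day 15 library for 6078 genes and below for 6549, of which 5703 were called as rises and 6063 as falls.

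Rises and falls were also counted in 10 bins of equal size by abundance, taken as the mean log2 CPM over all 30 libraries. That mean includes the compared libraries and the later days, so a gene's own change helped to set its bin, and the bins are a description. In the lowest bin, 7.92% of genes rose and 33.8% fell, and the median log2 change was -1.74. Genes of that bin had mean log2 CPM of only -2.98 to -1.17, so they passed the low-count filter through the libraries where they were highest. How far the filter shaped the balance of rises and falls there was not tested. In bin 5, 27.1% rose and 41.9% fell, with a median of -0.23. In the highest bin, 61.5% rose and 19.8% fell, with a median of 0.55. With total counts alone the medians were -2.16 in the lowest bin and -0.04 in the highest. The highest bin made up 63.4% ± 1.04 of a day 25 library and 53.8% ± 0.753 of a day 15 library (SD, n = 3 each). Bin 9 made up 15.9% ± 0.247 at day 25 and 16.1% ± 0.143 at day 15, and each of the 8 bins below it took a smaller share at day 25.

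In HDB the same bins ran from a median log2 change of -2.08 in the lowest to 0.25 in the highest with TMM. There the highest bin made up 60.0% ± 0.319 of a day 25 library and 54.0% ± 1.26 of a day 15 library. Genes ranked 101 to 1000 gained 5.68 percentage points in YMR, against 0.628 in HDB, where they held 30.4% ± 0.0626 at day 25 and 29.8% ± 0.701 at day 15 (SD, n = 3 each; exact two-sided permutation p = 0.4). The 10 most counted genes gained 0.705 percentage points in YMR, against 1.61 in HDB. The YMR gain was 0.458 without replicate 2 of YMR day 25 and 0.617 to 0.931 without any other of the 6 libraries. HDB TMM factors were 0.969 ± 0.00988 at day 25 and 1.13 ± 0.0454 at day 15. The difference between the cultivars in these shares and gene numbers was not tested.

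**Figure D3:**
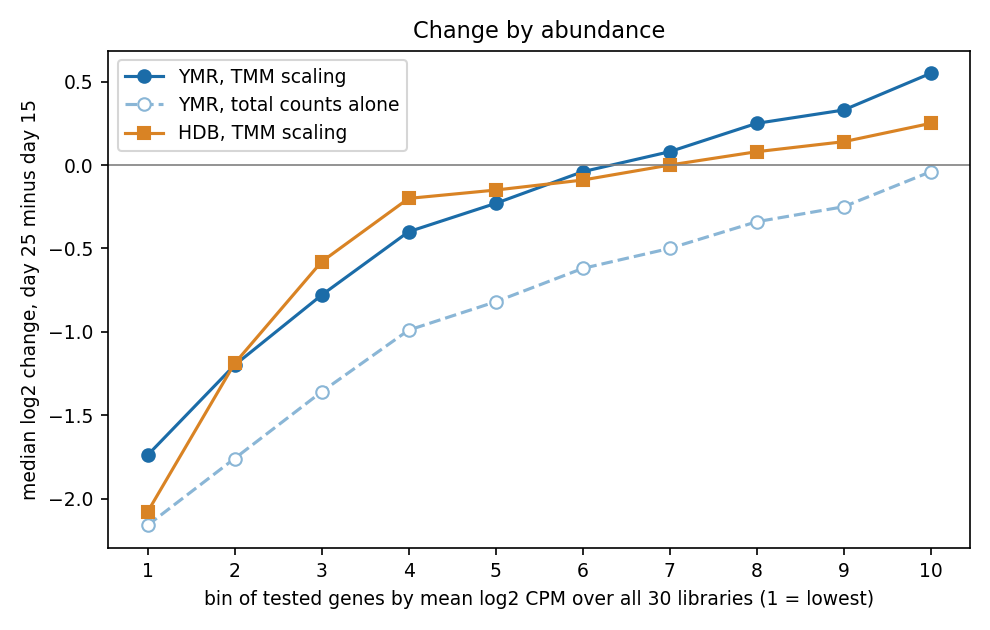
Median log2 change from day 15 to day 25 (y axis) in 10 bins of the tested genes by mean log2 CPM over all 30 libraries (x axis, 1 is lowest), for YMR with TMM, YMR with total counts alone and HDB with TMM. YMR medians run from -1.74 to 0.55 with TMM, and with total counts alone all 10 lie below 0.

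Some transcripts were all but absent on one day. Among genes with at most 3 counts over the day 15 libraries, 9 averaged 10 CPM or more at day 25, at 10.1 to 285 CPM with a median of 15.3. The reverse held for 18 genes, which had stood at 10.2 to 97.3 CPM at day 15 with a median of 14.7. The libraries of other groups were not used to pick these genes. Of the 9 that appeared, 8 averaged 10 CPM or more in YMR fruit at day 30 and 9 at day 35, against 52.6% of all tested genes at either day. In HDB 4 of the 9 reached that level at day 25, against 54.8% of all tested genes. Of the 18 that vanished, 13 had at most 3 counts in YMR fruit at day 30 and 12 at day 35, and 12 had at most 3 in HDB fruit at day 25. Among all tested genes such counts were found for 8.35%, 8.03% and 6.99%.

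The genes named next had the largest fitted rise or fall among called genes that reached a mean of 10 CPM on either day. MELO3C010779 had 128, 275 and 452 CPM in the day 25 libraries, against 0.0924, 0 and 0 CPM in the day 15 libraries, where it had 2 counts in all. The groups did not overlap, and the ratio of day 25 to day 15 was 9370 with an exact 95% interval for counting error of 2590 to 77400 (edgeR adjusted p = 1e-12). The fitted log2 change of 12.94 became 15.46 without replicate 1 of day 15, which held both counts. It lay between 12.41 and 13.3 without any 1 of the others, so the size of this change is poorly fixed by so few counts. In YMR fruit this gene had 0.379 ± 0.291 CPM at day 5, 705 ± 190 CPM at day 30 and 79 ± 19.5 CPM at day 35 (SD, n = 3 each). It rose in HDB too, with a log2 change of 10.48, and the difference between the cultivars was not called (edgeR adjusted p = 0.21).

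MELO3C024771 had 14600, 17900 and 15100 CPM at day 25, against 2.77, 4.93 and 2.06 CPM at day 15. It thereby passed from rank 13745 at day 15 to rank 1 at day 25 by its share of the counts, which was 1.13%, 1.29% and 1.18% in the day 25 libraries. Its log2 change was 12.25 with TMM (SE 0.58, edgeR adjusted p = 1.4e-14) and 11.68 with total counts alone. YMR fruit held 26600 ± 2250 CPM of it at day 30 and 26400 ± 2670 CPM at day 35 (SD, n = 3 each). HDB fruit made the same move, from rank 13637 to rank 1, with a log2 change of 12.76. The difference between the cultivars was not called (edgeR adjusted p = 0.48).

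On the falling side, MELO3C023620 had 0, 0 and 0.0685 CPM at day 25, a single count, against 50.1, 65.9 and 121 CPM at day 15. Its level at day 15 exceeded that at day 25 by a ratio of 3560, with an exact 95% interval for counting error of 639 to 141000 (edgeR adjusted p = 5.1e-07). The fitted log2 change of -11.42 became -13.6 without replicate 3 of day 25, which held that count. YMR fruit had 20.3 ± 9.79 CPM at day 5 (SD, n = 3) and no count at day 30 or day 35.

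MELO3C004098 had no count in any day 25 library, against 16.1, 19.7 and 13.8 CPM at day 15. Taking 3 counts in the group's 3 libraries together as the floor, 0.0674 CPM, the day 25 level was at least 245-fold lower (edgeR adjusted p = 1.5e-08). It had no count at day 30 or day 35 either, while day 5 libraries held 16.8 ± 5.03 CPM (SD, n = 3). Neither falling gene had a count on the later days sampled in YMR. Both also fell in HDB, where neither had a count at day 25. Against the same kind of floor, HDB day 25 was at least 92.5-fold lower for MELO3C023620 and at least 686-fold lower for MELO3C004098.

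A second view takes the share of all counts that a gene gained or lost, which weighs abundant genes. MELO3C010776 gained the most after MELO3C024771. It held 0.591%, 0.685% and 0.683% of the counts at day 25, against 0.00342%, 0.00204% and 0.00111% at day 15, and its log2 change was 8.81 (SE 0.31, edgeR adjusted p = 1.3e-16). In CPM it had 38.8 ± 2.88 at day 5, 19.2 ± 9.68 at day 15, 8620 ± 964 at day 25, 18100 ± 1300 at day 30 and 12900 ± 582 at day 35 (SD, n = 3 each). Its rise was larger in HDB, with a log2 change of 10.1 (difference YMR minus HDB -1.29, edgeR adjusted p = 0.0025).

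MELO3C006670 lost the most. It held 0.147%, 0.108% and 0.113% of the counts at day 25, against 0.887%, 1.01% and 1.03% at day 15, and passed from rank 2 to rank 92. Its log2 change was -2.42 with TMM (SE 0.18, edgeR adjusted p = 2.6e-11) and -2.99 with total counts alone. HDB gave -2.56 with TMM, and the difference between the cultivars was not called (edgeR adjusted p = 0.67).

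MELO3C009260, the most counted gene of day 15, lost the next most, and here the scaling decided the call. Its share was 0.523%, 0.51% and 0.511% at day 25, against 1.06%, 0.917% and 1.14% at day 15, with no overlap. In TMM-scaled CPM it had 6740, 7090 and 6530 at day 25, against 8980, 8640 and 9750 at day 15. Its log2 change was -0.43 with TMM (SE 0.2, edgeR adjusted p = 0.059), -0.46 with RLE (adjusted p = 0.049), -0.61 with upper quartile factors (adjusted p = 0.01) and -1.02 with total counts alone (adjusted p = 9.2e-05). HDB gave -0.07 with TMM, and the difference between the cultivars was not called (edgeR adjusted p = 0.32).

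**Figure D4:**
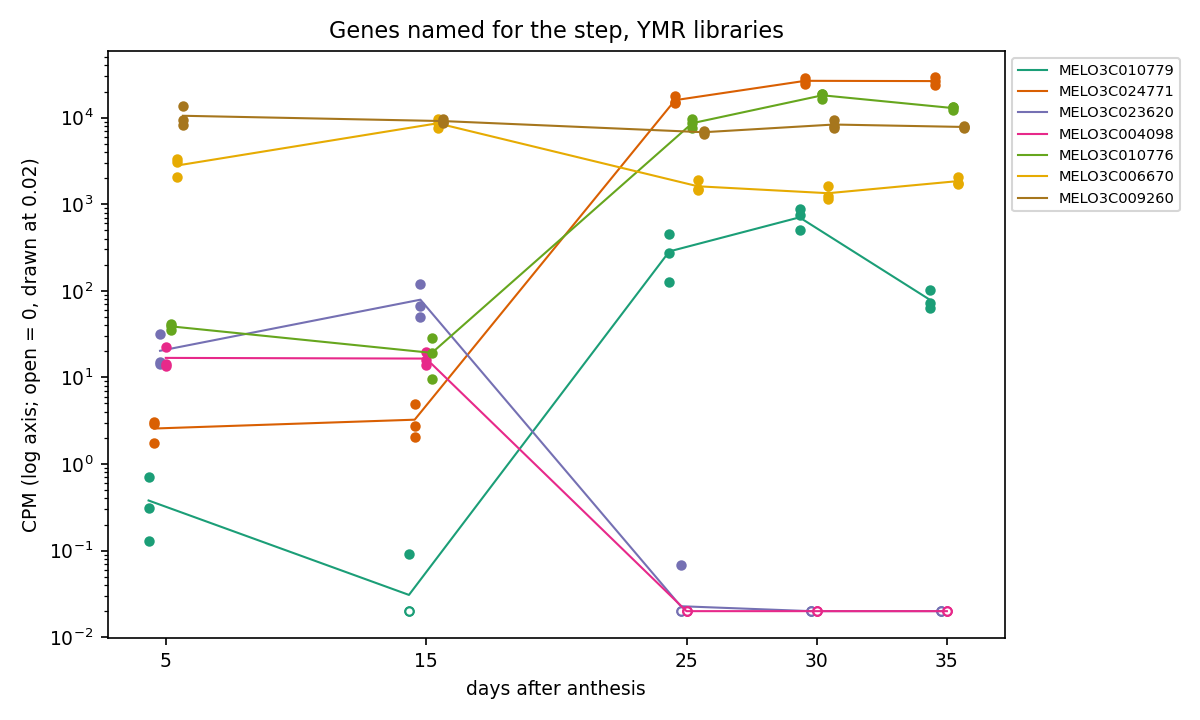
CPM on a log axis of the 7 genes named for the size of their change or of their gain or loss in share, in the 3 YMR libraries of each of the 5 days after anthesis; points are libraries (open where a library has no count, drawn at 0.02), lines join means. MELO3C024771 and MELO3C010776 stand at 7610 CPM or more in all libraries from day 25 on, and MELO3C004098 has no count from day 25 on.

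What the choice of scaling does to an abundant gene shows in MELO3C003581 and MELO3C004666, taken because their TMM change was the closest to 0 among genes with a mean of at least 100 CPM. MELO3C003581 had 1709, 1713 and 1642 raw counts at day 25, against 2323, 2341 and 2955 at day 15, at near equal totals. In CPM that is 114 ± 6.11 at day 25 and 114 ± 11.1 at day 15 (SD, n = 3 each), a log2 change of 0 with TMM, of -0.18 with upper quartile factors and of -0.59 with total counts alone (edgeR adjusted p = 2.2e-05). MELO3C004666 had 2895, 2760 and 2697 raw counts at day 25, against 3941, 3733 and 4880 at day 15, and its log2 change was likewise 0 with TMM and -0.59 with total counts alone (edgeR adjusted p = 3.7e-05). Whether such genes fell in the fruit cannot be told from these counts.

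Single libraries decided some calls. Among called genes with a mean of at least 100 CPM on their higher day, MELO3C026184 had the widest spread of the rises. It had 115, 288 and 572 CPM at day 25, against 166, 64.9 and 69.7 CPM at day 15, and the days overlapped. Its log2 change was 1.7 (SE 0.58, edgeR adjusted p = 0.014). The call was lost without replicate 3 of day 25 (log2 change 1.03, adjusted p = 0.14), without replicate 2 or replicate 3 of day 15 (1.46 and 1.49, adjusted p = 0.06 and 0.058), with total counts alone (1.1, adjusted p = 0.1) and with only the 6 libraries in the fit (1.68, adjusted p = 0.051).

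MELO3C001727 had the widest spread of the falls, with 275, 335 and 278 CPM at day 25, against 350, 222 and 2310 CPM at day 15. Replicate 3 of day 15 alone stood high. The log2 change was -1.7 (SE 0.74, edgeR adjusted p = 0.047), and without that library it was 0.05 (adjusted p = 0.96). The call was also lost without any 1 of the day 25 libraries (log2 change -1.79 to -1.63, adjusted p = 0.082 to 0.11), without the low-count filter (-1.69, adjusted p = 0.064), with the replicate number as a block (-1.34, adjusted p = 0.11) and with only the 6 libraries in the fit (-1.7, adjusted p = 0.12).

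The days not used in the step show what came before and after it. Over the 1193 genes that rose at least 4-fold, the median log2 CPM of a library averaged 2.18 ± 0.2 at day 5, 2 ± 0.27 at day 15, 5.53 ± 0.11 at day 25, 4.89 ± 0.12 at day 30 and 4.61 ± 0.14 at day 35 in YMR (SD, n = 3 each). On the days not used to pick them, these genes thus stood higher at day 30 and day 35 than at day 5. Over the 2344 genes that fell at least 4-fold it averaged 2.73 ± 0.08 at day 5, 2.27 ± 0.02 at day 15, -1.07 ± 0.27 at day 25, -1.52 ± 0.07 at day 30 and -1.45 ± 0.11 at day 35. Over all tested genes it stayed between 3.56 ± 0.02 and 3.93 ± 0.01. The values at day 15 and day 25 are those the classes were picked on, so a step back from them on other days can come from the picking alone.

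The change from day 5 to day 35 in YMR, called for 75.4% of tested genes, shares no library with the step. Of the genes that rose in the step, 3908 were also higher at day 35 than at day 5, which is 65.5% of the rises and 64.1% of the genes higher at day 35, while 33.1% of all tested genes were higher. Another 777 (13%) were lower at day 35, against 42.3% of all tested genes. Of the genes that fell in the step, 4631 (71.7%) were lower at day 35 and 589 (9.12%) higher. With total counts alone, which called 76.0% of genes between those days, 61.4% of the rises were higher at day 35, against 22.4% of all tested genes, and 71.1% of the falls lower, against 53.6%.

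The last step sampled in YMR, from day 30 to day 35, also shares no library with it and was called for 30.6% of tested genes. More of the step's genes then went the opposite way than the same way. Of the genes that had risen by day 25, 1654 (27.7%) fell from day 30 to day 35 and 633 (10.6%) rose, against 16.3% and 14.3% of all tested genes. Of those that had fallen by day 25, 1236 (19.1%) rose and 601 (9.31%) fell. With total counts alone, which called 29.4% of genes, 20.9% of the rises fell and 13.5% rose, against 10.8% and 18.6% of all tested genes, and 23.2% of the falls rose and 7.3% fell.

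How the step differed from that of HDB was tested as the difference of the changes, YMR minus HDB. It passed the test for 7629 genes, 41.4% of those tested, with the difference toward YMR in 4225 (22.9%) and toward HDB in 3404 (18.5%). Among the 4225, 598 rose in YMR and fell in HDB, 948 rose in YMR and were not called in HDB, 1078 fell in HDB and were not called in YMR, 632 rose in both and 936 fell in both. Among the 3404, 384 fell in YMR and rose in HDB, 670 fell in YMR and were not called in HDB, 980 rose in HDB and were not called in YMR, 956 rose in both and 373 fell in both. The remaining 33 and 41 were called in neither cultivar. With total counts alone, which called 44.6%, the split was 2369 (12.9%) toward YMR and 5857 (31.8%) toward HDB, and the median difference of all genes was -0.31 where TMM gave 0.04. Upper quartile factors called 41.2% and gave 3396 toward YMR and 4188 toward HDB.

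Most of the large changes were also called in HDB in the same direction. Of the 2344 genes that fell at least 4-fold in YMR, 1961 (83.7%) fell in HDB and 29 (1.24%) rose, against 39.0% and 32.0% of all tested genes. Of the 1193 that rose at least 4-fold, 787 (66.0%) rose in HDB and 107 (8.97%) fell. In HDB fruit the median log2 CPM of these 1193 averaged 4.2 ± 0.05 at day 25 and 2.44 ± 0.34 at day 15 (SD, n = 3 each). These genes were picked for their rise in YMR, so this level is not set against that of YMR. Whether falls and rises were shared to different extents was not tested.

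The next 4 genes had the widest fitted differences between the steps, 2 toward YMR and 2 toward HDB, among called genes that reached a mean of 10 CPM in at least 1 of the 4 groups. MELO3C013293 had 1.72, 0.423 and 6.71 CPM in YMR at day 25 and no count in YMR at day 15, at least 65.6-fold higher against the same kind of floor (edgeR adjusted p = 0.0021). In HDB it had no count at day 25, against 46.8, 11.3 and 10.4 CPM at day 15, at least 479-fold lower (edgeR adjusted p = 0.0001). At day 5 it had 4 counts in YMR and 2 in HDB, and on day 30 and day 35 neither cultivar had a count. The fitted difference of 20.7 on the log2 scale (edgeR adjusted p = 9.8e-05) rests on groups at 0 and is no bound. It was 19.27 without replicate 3 of YMR day 25, where the YMR bound was 23.8-fold, and 19.62 without replicate 1 of HDB day 15, where the HDB bound was 228-fold.

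MELO3C005858 also rose in YMR and fell in HDB, at higher levels. It had 29.7, 8.39 and 18.8 CPM in YMR at day 25, against 1.25, 0.323 and 1.29 CPM at day 15; the log2 change was 4.3 (SE 0.97, edgeR adjusted p = 0.00055). In HDB it had 0.151, 0.135 and 0.0954 CPM at day 25, against 770, 395 and 129 CPM at day 15, and the log2 change was -11.66 (SE 1.3, edgeR adjusted p = 7.9e-08). The difference was 15.96 (SE 1.62, edgeR adjusted p = 2.2e-07), and 15.24 without replicate 1 of HDB day 15, the highest library.

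Toward HDB, MELO3C018937 had 7.07, 3.24 and 5.96 CPM in YMR at day 25, against 32.7, 25.6 and 30.7 CPM at day 15, and the log2 change was -2.44 (SE 0.36, edgeR adjusted p = 3e-06). In HDB it had 511, 574 and 481 CPM at day 25, against 7.35, 7.86 and 9.56 CPM at day 15, and the log2 change was 5.98 (SE 0.39, edgeR adjusted p = 5.4e-12). The difference of the steps was -8.42 (SE 0.52, edgeR adjusted p = 2.6e-10). In HDB its level was 58.7 ± 22.5 CPM at day 30 and 271 ± 78 CPM at day 35, while in YMR it was 2.29 ± 0.418 and 2.19 ± 1.43 CPM at those days (SD, n = 3 each).

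MELO3C001992 was hardly read in YMR, with no count at day 25 and 2 counts at day 15, both in replicate 3. In HDB it had 48.2, 45.1 and 37.3 CPM at day 25, against 0.605, 0.775 and 0.754 CPM at day 15, and the log2 change was 5.91 (SE 0.5, edgeR adjusted p = 1.9e-09). The fitted difference of -8.44 rests on a YMR group with no count and is no bound, and it passed narrowly (edgeR adjusted p = 0.035). It was lost without replicate 3 of YMR day 15 (-5.91, adjusted p = 1) and without replicate 1 or replicate 2 of YMR day 25 (-8.41 each, adjusted p = 0.052 and 0.051). Fitted on the 4 compared groups alone it was -8.49 (edgeR adjusted p = 0.0073), and DESeq2 gave -7.22 (adjusted p = 0.0001).

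**Figure D5:**
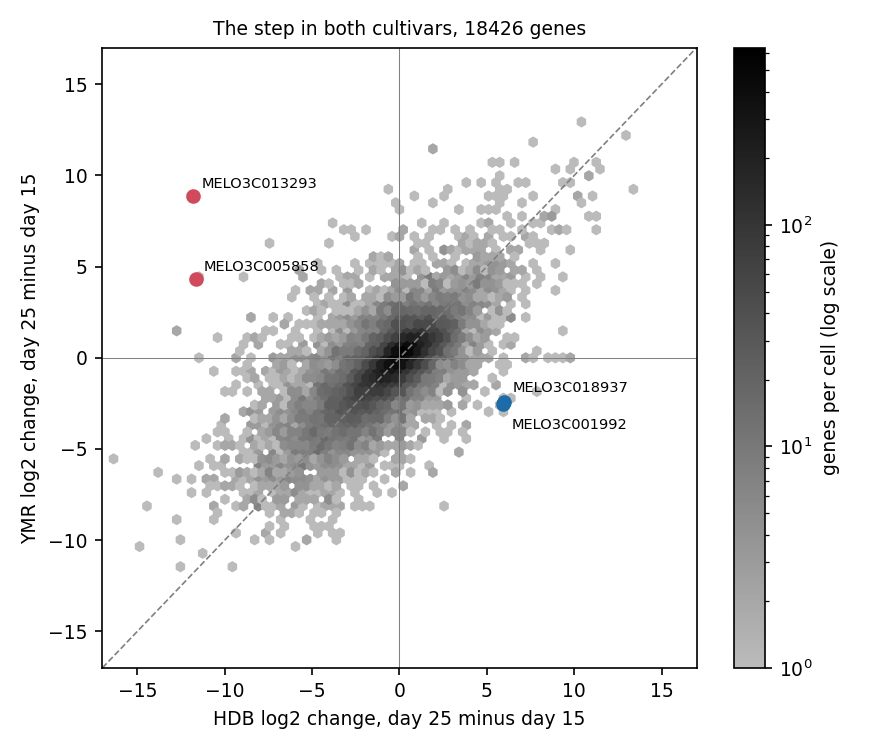
Log2 change from day 15 to day 25 in YMR (y axis) against HDB (x axis) for the 18426 tested genes with TMM; shading gives the number of genes per cell on a log scale, the dashed line marks equal changes, and the 4 named genes are coloured. MELO3C013293 and MELO3C005858 lie where YMR rose and HDB fell, MELO3C018937 where YMR fell and HDB rose, and MELO3C001992 at nearly the same place although its YMR change was not called.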

How the data were processed

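The values the authors deposited are whole-number read counts for 27427 genes in 30 fruit libraries. The submitters' processing notes name HISAT2 and HTSeq, with no version. Build, annotation, strand and counting settings were not given in the sources used here, so reads of near-identical or overlapping genes may be split or shared in any identifier's count. Columns were matched to samples by title. Whether replicates came from separate plants is not labelled, nor is any batch. The edgeR p-values therefore set a difference only against the spread among libraries, estimated over all 30, and that spread may be technical. Replicate pairs differed beyond counting noise (chi-square per degree of freedom 14.5 to 118 within the 2 YMR groups, over genes whose counts sum to at least 20).

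Genes were kept by filterByExpr on the 10 groups of all 30 libraries (minimum count 10, total 15). All 30 libraries entered 1 fit with 10 group means in edgeR 4.0.16 (R 4.3.3, limma 3.58.1) with TMM and robust dispersions (biological coefficient of variation 19.1%), and quasi-likelihood F tests were two-sided and adjusted over all tested genes. Standard errors were derived from the log2 change and its F value. The test was checked on counts simulated with few changes, balanced up and down, so that check does not bear on the shift in composition seen here. Shares were taken over all genes, and permutation tests used scipy 1.17.1.

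For named genes, at most 2 identifiers per direction were taken for the largest fold change, the gain or loss in share and the difference between cultivars (mean of at least 10 CPM), 2 for a change closest to 0 and 1 per direction for spread (mean of at least 100 CPM). The rules, the days compared and the classes were chosen with earlier results of these data known. The lists of pathway and tissue genes by product name could not be applied. Alternatives were other scalings, DESeq2 1.42.0, no filter, the replicate number as a block, fewer groups in the fit, a 2-fold threshold test and each library left out. TMM with singleton pairing, the 1000 most counted genes, bounds with a library left out and the fits of day 35 with only the compared groups were added after seeing the data. Intervals and floors of 3 counts cover counting error only.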

Additional observations from a re-analysis of the deposited data

Results flagged for a closer look

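The change from day 15 to day 25 differed between YMR and HDB in 7629 genes by edgeR's test of the difference itself. The 4 genes named for it were picked by the size of the fitted difference among called genes, not by the strength of the test. Their log2 differences (YMR minus HDB) were 20.7 for MELO3C013293, 15.96 for MELO3C005858, -8.44 for MELO3C001992 (edgeR adjusted p = 0.035) and -8.42 for MELO3C018937. The first and the third rest on groups with no count and are no bounds, and the third was lost when some single YMR libraries were left out. No group held enough libraries for a test of single outlying samples.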

How the results depend on the processing

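For the step, the number of genes called lay between 10838 (only the compared groups) and 13175 (total counts alone, 71.5% of those tested), against 12421 (67.4%), and between 11520 and 12070 without single libraries. The low-count filter was run anew for fits with fewer libraries. Those fits may have tested other sets of genes, so their counts are not shares of the same total. Total counts alone gave 2940 rises and 10235 falls, and for the difference between cultivars 2369 toward YMR and 5857 toward HDB. For day 35 minus day 30 they gave 1986 falls, against 2999. The median log2 change of the step, -0.07, was -0.1 with RLE and with DESeq2, -0.25 with upper quartile factors, -0.66 with total counts alone, 0 without the low-count filter and -0.07 to -0.05 without single libraries. At least 2-fold changes numbered 7227 (6490 to 8313 over alternatives that keep this rule) and 4844 by the threshold test against 2-fold. Genes with at least 1 count fell by 866 where those with at least 10 fell by 1384, and the gain of 0.705 percentage points by the top 10 genes was 5.14 for the top 100 and 10.8 for the top 1000. MELO3C003581 and MELO3C004666 turned from a log2 change of 0 to -0.59 with total counts alone, and MELO3C001727 to 0.05 without replicate 3 of day 15 (-2.17 to 0.05 without single libraries). The cause of these moves was not tested. Deviations from the group means correlated across genes at r = -0.03, -0.08 and -0.02 between same-numbered YMR libraries of day 25 and day 15. Between other-numbered ones r was -0.08 to 0.1. With 3 libraries a group these values cannot tell whether the numbers pair anything. With the replicate number as a block, 12345 genes were called in the step (5940 rises, 6405 falls) and 7505 in the difference between cultivars. The same block gave 13835 genes in day 35 minus day 5 and 5533 in day 35 minus day 30. Depth limits the genes near the floor of 3 counts, 0.0674 CPM over the day 25 libraries of YMR and 0.045 CPM over those of day 15.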
